A study of Mus musculus with 6 samples.

Results

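Cd14, the Toll-like receptors and their partners, and a branch of C-type lectin receptors sense microbial and damage-associated molecules at the cell surface. The genes described were taken by symbol: Lbp, Cd14, Ly96, Tlr4, Tlr2 and Myd88 on the Toll-like side and Clec7a, Cd209b, Syk and Card9 on the lectin side, 10 genes of the 55385 in the tables. LBP, a soluble acute-phase protein made mainly by the liver, transfers lipopolysaccharide to CD14, which hands it to the TLR4 and MD-2 complex, and MyD88 carries the signal of TLR4 and TLR2 to NF-κB. Dectin-1, encoded by Clec7a, binds fungal beta-glucans and signals through the kinase SYK and the adaptor CARD9. Several of these genes are known from macrophages, and Cd14 and Lbp also from mammary epithelium during involution.

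RNA from mammary tissue of female NeuT/ATTAC mice was sequenced in 6 libraries, 3 from controls and 3 from mice given DMHCA, a sterol-derived ligand that activates LXR. All carried an activated rat ErbB2 under the MMTV promoter, which drives it mainly in mammary epithelium, and an FKBPv-caspase-8 fusion under the FABP4 promoter, which directs it to fat. The dimerizer AP20187, which activates that caspase, was injected at 0.4 mg/kg 3 times a week from 6 weeks of age, and treated mice ate chow with 0.05% DMHCA (100 mg/kg) starting at 8 weeks. The control label can be read as AP20187 with vehicle or as vehicle alone. The paper describes the sequenced tumors as coming from mice given AP20187, and this description was followed. The tissue label names mammary fibrosis where the paper describes tumors, and the age at collection was not given in the sources used here.

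Rounded expected counts totalled 53939201, 63420620 and 46358654 for controls 1 to 3, against 55539411, 52755446 and 52330938 for DMHCA 1 to 3. Between DMHCA libraries 1 and 3 the biological coefficient of variation was 0.0327, while the other 5 pairs within a group had 0.376 to 0.579, so this pair was summed and counted as 1 sample. By a chi-square test, which allows for counting error only, 18.2% of genes still differed within that pair, against 82.0% to 87.0% in the other pairs. The comparison is therefore of 3 control samples with 2 DMHCA samples. The paper describes 3 mice in each group, so summing this pair departs from it, while the labels do not say which libraries are separate mice. The p-values measure the spread between these samples. Normalized counts below are scaled by TMM to the mean effective library size and compare samples for a gene. TPM, the authors' depth-scaled transcript share, is per length. It is used to compare genes with each other, to sum gene lists within each library and in an alternative fit. These sums are on another scale than the normalized counts. Over all genes tested, the median log2 fold change was 0.11 on log2(TPM + 1) and -0.03 with TMM.

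All 10 genes had a lower mean normalized count with DMHCA, and Cd14, Cd209b and Clec7a were the 3 with an unadjusted p under 0.05 in edgeR's quasi-likelihood test. Over all 19427 genes tested, 52.0% had a lower mean, 4.08% were lower at that threshold and 3.53% were higher. None of the 10 was higher at that threshold. The 10 genes and the lists below were chosen with earlier results of these data known. The paper lists Cd14, Clec7a and Cd209b as lower with DMHCA in these libraries, so counts among the 10 are partly set by that choice. After Benjamini-Hochberg adjustment edgeR called 0 of the 19427 genes, a share of 0%, with 1478 genes at an unadjusted p under 0.05 and a smallest adjusted p of 0.644. The fit on 6 libraries counts DMHCA 1 and 3 as separate replicates, so its n is above the number of distinct samples. DESeq2 called 3 of the 10 on the 6 libraries, Cd14, Cd209b and Clec7a, and 2 on the 5 samples, Cd14 and Cd209b, all lower. Of the 19951 genes that DESeq2 gave an adjusted p on the 6 libraries, 2.99% were called lower and 1.46% higher. Of the 20055 with an adjusted p on the 5 samples, 0.967% were called lower and 0.249% higher. In 5 of the 10 genes all controls exceeded all DMHCA samples, against 12.2% of all genes tested, and 0 of the 10 lay the other way, against 13.8%. The median log2 fold change of the 10 was -0.86, and that of all genes tested was -0.03. Control 3 held the highest count of 9 of the 10 genes and control 2 that of Lbp. Without control 3 the median of the 10 was -0.45 and 2 of them were lower at an unadjusted p under 0.05, against 3.27% of all genes then tested. Without DMHCA 2 there was 1, against 1.48% of all genes. Without control 1, with 2 samples in each group, 9 of the 10 had every control above both DMHCA samples, against 18.2% of all genes lower without overlap in that setting.

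**Figure D1:**
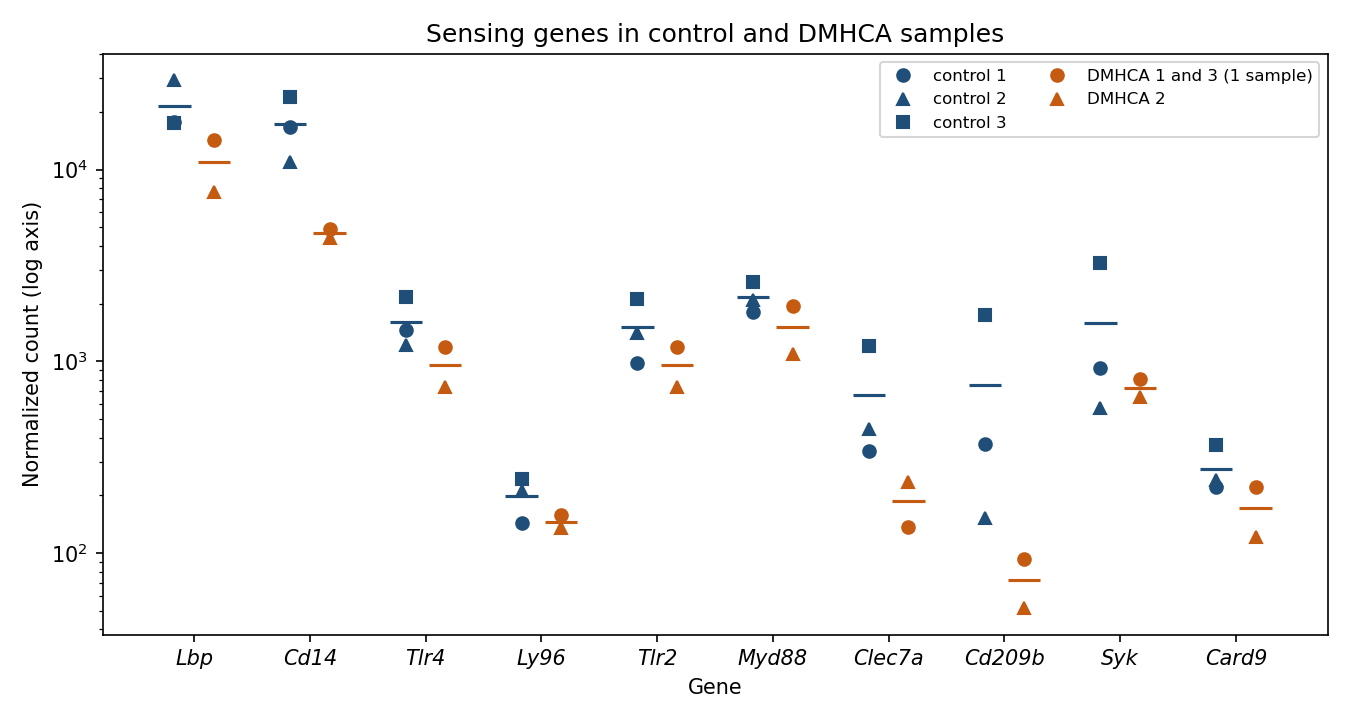
Normalized counts (log axis) of the 10 genes in each sample, with controls in blue, DMHCA in orange and horizontal bars at group means (n = 3 and 2). The DMHCA samples of Cd14, at 4910.2 and 4426, sit below all 3 controls, whereas in Syk, Card9, Tlr2, Ly96 and Myd88 the groups overlap.

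Levels per length set 2 genes apart from the rest. Mean TPM over the 5 samples was 211 for Cd14 and 181 for Lbp. It was 25.6 for Myd88, the shared adaptor, and between 5.66 for Card9 and 10.9 for Tlr2 in the other 7 genes. Among these 7 the sample ranges overlap, so their order is not resolved. Cd14 was above Lbp in controls 1 and 3, at 311 against 205 and 419 against 193 TPM, and below it in control 2, at 150.2 against 248 TPM. In the DMHCA libraries Cd14 was the lower of the pair in each, at 86.8 against 167, 87.1 against 95.6 and 90.2 against 159.9 TPM.

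Lbp, which delivers lipopolysaccharide to CD14, had normalized counts of 17754, 29199 and 17520.2 in controls 1 to 3, against 14351 in DMHCA 1 and 3 and 7623 in DMHCA 2. The groups did not overlap, although the upper DMHCA sample was close to controls 1 and 3. The log2 fold change was -0.97 (SE 0.42), with an unadjusted p of 0.0581 in edgeR on the 5 samples. On the same samples the p was 0.0409 scaled by library size only, 0.0380 with no filter on low counts, 0.0486 when only genes averaging 100 counts or more were kept and 0.0347 in limma on log2(TPM + 1), at -0.77. It stayed over 0.05 in DESeq2 (0.0586), with DESeq2 size factors within edgeR (0.0695) and with robust dispersions in edgeR (0.0554). Lbp lies on the plus strand of chr2:158306493-158332852 in GRCm38. Without DMHCA 2 its log2 fold change was -0.54.

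Cd14, the lipopolysaccharide co-receptor, had normalized counts of 16677, 10999 and 24049.6 in controls 1 to 3, against 4910.2 in DMHCA 1 and 3 and 4426 in DMHCA 2. The DMHCA samples were close to each other and lay below the lowest control, control 2. The means were 17242 ± 6544 (SD, n = 3) and 4668 ± 342 (SD, n = 2), a 3.69-fold lower mean in the fit with a log2 fold change of -1.88 (SE 0.41). The unadjusted p was 0.00283 and the adjusted p in edgeR was 0.644, while DESeq2 gave adjusted p of 0.00934 on the 5 samples and 0.000103 on the 6 libraries. The log2 fold change ran from -2.13 without control 2 to -1.57 without control 3. This gene (ENSMUSG00000051439) is on the minus strand of chr18:36725067-36726798. In bulk tissue, fewer cells of a type and less RNA per cell cannot be told apart.

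Tlr4, the lipopolysaccharide receptor, had normalized counts of 1458, 1222 and 2163 in controls 1 to 3, against 1187 in DMHCA 1 and 3 and 737 in DMHCA 2. With TMM the groups did not overlap, but control 2 and the summed DMHCA sample were nearly equal, and in TPM control 2 (6.08) lay below DMHCA 1 (8.22) and 3 (7.97), so their separation depends on the scaling. In edgeR the log2 fold change was -0.75 (SE 0.38), with an unadjusted p of 0.0923, -0.40 without DMHCA 2 and -0.48 without control 3. Ly96 encodes MD-2, the lipid-binding partner of TLR4, and had 144, 209.7 and 243 in the controls against 158 and 135 with DMHCA. Control 1 of Ly96 lay between both DMHCA values, and the gene's log2 difference was -0.45 (SE 0.48), or -0.28 without control 3 and -0.29 without DMHCA 2.

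Tlr2, the receptor for bacterial lipopeptides, had normalized counts of 976, 1414 and 2125 in controls 1 to 3, against 1185 in DMHCA 1 and 3 and 732 in DMHCA 2. The summed DMHCA sample was above control 1, so the groups overlap, and the log2 fold change was -0.65 (SE 0.42), or -0.32 without control 3 and -0.30 without DMHCA 2. Myd88, the adaptor of both receptors, had 1819.7, 2084 and 2607 in the controls against 1943 and 1091 with DMHCA. Its groups also overlap, its log2 fold change was -0.52 (SE 0.34), and without DMHCA 2 it was -0.12. Myd88 shares exon sequence with Acaa1a on the opposite strand, and strand use in counting was not stated, so its values are uncertain.

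Clec7a, which encodes Dectin-1, had normalized counts of 343, 445 and 1208 in controls 1 to 3, against 137 in DMHCA 1 and 3 and 236 in DMHCA 2. The groups did not overlap, and control 3 stood well above the rest. For Clec7a the log2 fold change was -1.84 (SE 0.68), with an unadjusted p of 0.0332. It was -1.09 without control 3, with an unadjusted p of 0.0752, and -2.23 without DMHCA 2, with an unadjusted p of 0.0562. DESeq2 gave adjusted p of 0.183 on the 5 samples and 0.0135 on the 6 libraries, so Clec7a was called only where DMHCA 1 and 3 count as separate replicates. In limma on log2(TPM + 1) it was -1.13, with an unadjusted p of 0.107. The annotation calls this gene (ENSMUSG00000079293, minus strand of chr6:129461591-129472779) a polymorphic pseudogene.

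Cd209b, a C-type lectin of the DC-SIGN family known from marginal zone macrophages, had normalized counts of 369, 152 and 1747 in controls 1 to 3, against 92.9 in DMHCA 1 and 3 and 51.6 in DMHCA 2. Both DMHCA samples were lower than every control, and the controls themselves spanned 11.5-fold. For Cd209b the log2 fold change was -3.38 (SE 1.13), with an unadjusted p of 0.0220. It was -1.85 without control 3, with an unadjusted p of 0.0302, and -2.97 without DMHCA 2, with an unadjusted p of 0.104. In limma on log2(TPM + 1), a scale that understates differences of low genes, it was -1.84, with an unadjusted p of 0.0831. DESeq2 gave adjusted p of 0.0380 on the 5 samples and 0.00182 on the 6 libraries. Cd209b (ENSMUSG00000065987, minus strand of chr8:3917655-3926844) belongs to a family of similar genes between which reads could be divided, so its values are uncertain.

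Syk, the kinase downstream of Dectin-1, had normalized counts of 925, 572 and 3256 in controls 1 to 3, against 805 in DMHCA 1 and 3 and 655 in DMHCA 2. Control 2 was the lowest of all samples and control 3 by far the highest. The log2 fold change of -1.12 (SE 0.74) became -0.04 without control 3. Card9, the adaptor below SYK, had 220.5, 241 and 367 in the controls against 222 and 121 with DMHCA, with overlapping groups and a log2 fold change of -0.68 (SE 0.52), or -0.42 without control 3 and -0.27 without DMHCA 2. An exon of Card9 overlaps Gm13562 on the opposite strand, which leaves its values uncertain as well.

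The other genes of these pathways were taken from 8 lists with 135 genes, of which 127 were tested. Their means were lower for 92 and higher for 35, while 52.0% of all genes tested had a lower mean. At an unadjusted p under 0.05, 10 were lower and 1 higher, against 4.08% and 3.53% of all genes tested. Among the 127, the groups did not overlap for 23 lower and 4 higher genes, against 12.2% and 13.8% of all genes. The median log2 fold change was -0.39. Control 3 held the highest count for 79 of them. Without it the median was -0.14, with 5 of the 127 lower and 1 higher at that threshold, against 3.27% of all genes then tested lower. DESeq2 called 6 of the 127 on the 6 libraries and 2 on the 5 samples, all lower, against 2.99% and 0.967% of genes with an adjusted p.

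Of 15 tested Toll-like receptors and cofactors, 11 had lower means and 1 passed the unadjusted threshold, with a list median of -0.12. That gene was Ly86, the MD-1 partner of the receptor-like Cd180, with normalized counts of 821, 1238 and 1717 in controls 1 to 3 against 613 and 483 with DMHCA. Both DMHCA samples were below all controls (log2 fold change -1.20, unadjusted p 0.0229, or -0.91 and 0.0555 without control 3). Tlr1, which pairs with TLR2, had a log2 fold change of -1.33 (SE 0.71), which was -0.44 without control 3. Tlr5, the flagellin receptor, had 0.29 (SE 0.81), which was 0.99 without control 3, and Tlr8, a receptor for RNA, 0.11 (SE 0.46). The chaperone Hsp90b1 had the highest TPM of the list at 769.

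Among 19 adaptors and kinases, 14 had higher means, 0 passed the unadjusted threshold in either direction in edgeR, DESeq2 called 0, and the median was 0.19, or 0.07 without control 3. Irf7, an interferon-induced transcription factor, had the highest mean TPM of the list at 141, although Ube2n was higher in control 2 and DMHCA 2. Normalized counts of Irf7 were 8619, 1064 and 9243 in the controls against 23532 and 4149 with DMHCA. Its DMHCA samples differed more than the means did, and control 2 was the lowest. Traf6 and Irak1, which relay MyD88 signals, had log2 fold changes of 0.53 (SE 0.34) and 0.34 (SE 0.27), the latter 0.18 without control 3. Irf5, a transcription factor below MyD88, had -1.09 (SE 0.57), which was -0.45 without control 3, and the kinase Irak2 -0.35 (SE 0.38), which was -0.20 without it.

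Of the 10 NF-κB subunits and inhibitors, 6 had lower means and 0 passed the unadjusted threshold in edgeR, with 0 called by DESeq2. Nfkbia, the inhibitor induced by NF-κB itself, was the most abundant at 71.6 TPM and had a log2 fold change of -0.92 (SE 0.48), which was -0.37 without control 3. Nfkbie had -0.94 (SE 0.56), which was -0.42 without control 3, and Nfkbib and Nfkbiz had 0.56 (SE 0.31) and 0.31 (SE 0.36), the last 0.18 without it. Of 10 negative regulators of Toll-like signalling, 7 had lower means, and Tollip, which restrains IRAK1, was the 1 higher gene past the unadjusted threshold. It had 3776, 2378 and 3342 normalized counts in the controls against 5975 and 5135 with DMHCA. Both DMHCA samples exceeded every control (log2 fold change 0.81, unadjusted p 0.0255, and 0.0454 without control 3). Pdlim2, which promotes degradation of the p65 subunit, had -0.88 (SE 0.41) and the phosphatase Dusp1 -0.70 (SE 0.47), which was -0.33 without control 3. Irak3, an inhibitory IRAK, had 0.57 (SE 0.58), which was 1.14 without it.

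C-type lectin receptors other than Clec7a and Cd209b numbered 27 tested of 29. Of these, 22 had lower means, 3 were lower at the unadjusted threshold, and the median was -0.82, which became -0.28 without control 3. The 3 were Clec4d, a Syk-coupled receptor, Cd207, the langerin of Langerhans cells, and Cd209a, a relative of Cd209b that was chosen after its values were seen. Cd207 had 10.6, 42.7 and 77.9 normalized counts in the controls against 4.02 and 0 with DMHCA (log2 fold change -4.19, unadjusted p 0.0189), few counts in any sample. Clec4d had 216, 111 and 251 normalized counts in the controls against 81.9 and 48.6 with DMHCA, all below the lowest control (log2 fold change -1.56, unadjusted p 0.0386, and 0.0752 without control 3). Cd209a had 116, 108 and 208 in the controls against 67.8 and 35.4 with DMHCA (log2 fold change -1.47, unadjusted p 0.0490, and 0.106 without control 3), and the same division of reads is possible. Of the 3, only Cd207 stayed under the threshold without control 3. The log2 fold changes were then -3.46 for Cd207, -1.32 for Clec4d and -1.12 for Cd209a. Clec2d, the most abundant of the list at 56.5 TPM, had a log2 fold change of -1.03 (SE 0.63), which was -0.28 without control 3. Mrc1, the mannose receptor of macrophages, was among the 5 with higher means, at a log2 fold change of 0.32 (SE 0.32), or 0.59 without control 3, and Mrc2, its collagen-binding relative, had 0.20 (SE 0.37), or 0.04 without it.

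Of 17 genes of Syk and Card9 signalling, 16 had lower means and 1 passed the unadjusted threshold, with a median of -0.64 that became -0.19 without control 3. Tyrobp, the DAP12 adaptor of myeloid receptors, had 2157, 2907 and 4214 normalized counts in the controls against 1866 and 1302 with DMHCA. Both DMHCA samples lay below the lowest control (log2 fold change -0.96, unadjusted p 0.0351, or -0.68 and 0.0888 without control 3). Fcer1g, the other signalling adaptor of these receptors, had -0.87 (SE 0.43), and Plcg2 0.01 (SE 0.22).

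Soluble recognition proteins numbered 8 tested of 12, of which 7 had lower means and 2 were lower at the unadjusted threshold. Sftpd, the collectin surfactant protein D, had 694, 585 and 3115 normalized counts in the controls against 46.7 and 91.1 with DMHCA. Every control was above both DMHCA samples (log2 fold change -4.42, unadjusted p 0.00306), also without control 3 (-3.22, unadjusted p 0.000841). Ptx3, the long pentraxin, had 949, 688 and 744 in the controls against 464 and 345 with DMHCA (log2 fold change -0.97, unadjusted p 0.0349). Pglyrp1, a peptidoglycan-binding granule protein, was the most abundant at 1003 TPM and ranged from 2233 normalized counts in control 3 to 43895 in DMHCA 2.

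Transcripts that Toll-like receptors induce were lower in mean for 18 of 21 tested, with 3 lower at the unadjusted threshold, Ptgs2, Csf3 and Il1b, and a median of -0.71. Without control 3 the median was -0.43 and 2 genes were lower at that threshold. Ptgs2, the inducible cyclooxygenase, had 626, 158 and 1147 normalized counts in the controls against 163 and 104 with DMHCA, so its groups overlap. The log2 fold change of Ptgs2 was -2.27 (unadjusted p 0.0343 in edgeR), or -1.56 without control 3 (0.0774). Csf3, the granulocyte growth factor, had 137, 1064 and 36.8 against 9.54 and 41.5, with control 3 below DMHCA 2 (log2 fold change -4.03, unadjusted p 0.0429). Il1b, chosen after its values were seen, had 695, 1498 and 536 normalized counts in the controls against 356 and 389.8 with DMHCA. Its DMHCA samples were below all controls, with control 2 and not control 3 the highest (log2 fold change -1.29, unadjusted p 0.0465, and 0.0146 without control 3). Lcn2, the siderophore-binding lipocalin, was by far the most abundant of the list at 10741 TPM, with overlapping groups and a log2 fold change of -0.30 (SE 0.49), or -0.56 without control 3. Il1a and Acod1 had higher means, at log2 fold changes of 0.23 (SE 0.59) and 0.23 (SE 0.96), or 0.48 and 0.78 without control 3.

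Cell type markers were compared beside these genes. The 14 macrophage and monocyte markers summed to 1432, 1145 and 2381 TPM in controls 1 to 3 and 1314, 1057 and 1322 TPM in DMHCA 1 to 3. In this list 11 had lower means, 0 passed the unadjusted threshold in edgeR, DESeq2 called 0, and the median was -0.22, or -0.03 without control 3. Lyz2, its most abundant gene at 607 TPM, had a log2 fold change of -1.08 (SE 0.56), which was -0.40 without control 3. Csf1r, chosen after its values were seen, had 4334, 4601 and 5919 normalized counts in the controls against 4977 and 3631 with DMHCA, groups that overlap. No gene of the list was at 0 in any library.

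Lymphoid markers were the most uneven among controls. The 9 B cell markers summed to 42.0, 1.32 and 340.3 TPM in controls 1 to 3 and 2.79, 2.48 and 1.94 TPM in DMHCA 1 to 3. Cd79a was the most abundant in the mean, though Cd79b was above it in control 2 and in each DMHCA library. Fcer2a had the smallest p in edgeR, 0.0165. All 9 were lower at the unadjusted threshold, with a median of -6.88, and DESeq2 called 9 on the 6 libraries and 4 on the 5 samples. Without control 3, 4 were still tested, with a median of -3.93, and 1 was lower at that threshold. The 8 T cell markers summed to 29.4, 5.23 and 262 TPM in the controls and 13.8, 8.78 and 12.7 TPM with DMHCA, with 2 lower at the unadjusted threshold (Trac, and Cd3d chosen after its values were seen) and Cd3g the most abundant. Without control 3 there was 1, Trac, and DESeq2 called 3 on the 6 libraries and 1 on the 5 samples. The 10 markers of lymphoid stroma and lymphatics summed to 179, 26.3 and 1599 TPM in the controls and 24.0, 95.7 and 23.7 TPM with DMHCA, led by Glycam1, and 4 were lower at that threshold: Madcam1 and Glycam1, with Ccl19 and Cxcl13 chosen after their values were seen. Reln, chosen after its values were seen, held 85.6 of the 95.7 TPM in DMHCA 2, where Glycam1 was at 1.80 TPM. Of the 10, 4 had higher means, and the median of -2.14 turned to 0.57 without control 3, over the 9 then tested, with 2 lower at the threshold. DESeq2 called 4 on the 6 libraries and 3 on the 5 samples. Madcam1 was at 0 in at least 1 library. Control 3, the library with the highest counts of Clec7a, Cd209b and Syk, was the highest in each of these lists, and the part of these markers in those results was not tested.

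Sinus and marginal zone macrophages express Cd209b and Marco, and their 7 markers summed to 30.5, 15.4 and 73.5 TPM in the controls and 35.2, 28.0 and 32.6 TPM with DMHCA. None of the 7 was lower or higher at the unadjusted threshold in edgeR, DESeq2 called 0, and Vcam1 was the most abundant. Marco had 178, 2.85 and 1214 normalized counts in the controls against 38.2 and 5.06 with DMHCA, with control 2 the lowest and control 3 the highest of all samples. Its log2 fold change was -4.39 (SE 2.16), which was -2.03 without control 3. The 8 dendritic cell markers summed to 34.5, 18.6 and 94.1 TPM in the controls and 26.5, 26.0 and 24.5 TPM with DMHCA, led by Fscn1, with Siglech and Itgax (chosen after its values were seen) the 2 lower at the unadjusted threshold. Without control 3 there were 0 in edgeR (Siglech p 0.0695, Itgax p 0.0760), and the median of -1.30 became -0.51. The log2 fold change of Itgax then went from -0.68 to -0.67, and that of Siglech from -2.96 to -1.57. DESeq2 called 1 of the 8 on the 6 libraries and 0 on the 5 samples.

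Fat and epithelium markers also differed between samples. The 9 adipocyte markers summed to 316, 138 and 1299 TPM in controls 1 to 3 and 87.5, 86.4 and 83.3 TPM in DMHCA 1 to 3, with Fabp4 the most abundant and Lep, which had the smallest p at 0.00296, at 0 in at least 1 library. In this list 7 were lower at the unadjusted threshold, and 7 also without control 3. DESeq2 called 7 on the 6 libraries and 5 on the 5 samples. The 18 mammary epithelium markers summed to 27250.1, 20534 and 43669.5 TPM in the controls and 32059, 16698 and 32974 TPM with DMHCA, led by Csn3, so mammary epithelial transcripts were abundant in all libraries. Of these, 13 had lower and 5 higher means, with a median of -0.87, or -0.52 without control 3. The 5 with higher means, Krt8, Kit, Krt18, Elf5 and Lalba, were also chosen after their values were seen. Krt8, a luminal keratin, had 50909, 57346 and 47522 normalized counts in the controls against 84566 and 66265 with DMHCA, both above every control, at a log2 fold change of 0.54 (SE 0.33). At the unadjusted threshold 5 of the 18 were lower: Esr1 by the naming rule, and Aldh1a3, Krt7, Csn2 and Ltf chosen after their values were seen. Csn2 and Ltf did not pass without control 3, and DESeq2 called 4 on the 6 libraries and 2 on the 5 samples. The 10 granulocyte markers summed to 55.9, 33.5 and 59.5 TPM in the controls and 12.9, 216 and 11.7 TPM with DMHCA, led by S100a8, with Ly6g, Mpo and Elane too low to be tested and Retnlg lower at the unadjusted threshold. S100a8 alone was 199 of the 216 TPM in DMHCA 2, while 6 of the 7 tested had lower means and the median was -1.47. DESeq2 called 2 of them on the 6 libraries and 0 on the 5 samples. The 10 fibroblast markers summed to 1036, 450.4 and 1646 TPM in the controls and 887, 928 and 904 TPM with DMHCA, led by Col3a1, with Dcn the smallest p at 0.103, and 0 passed the unadjusted threshold in edgeR or were called by DESeq2. The part of these markers in the Cd14 and Lbp values was not tested, and Cd14 was lower by a log2 fold change of -1.57 without control 3.

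**Figure D2:**
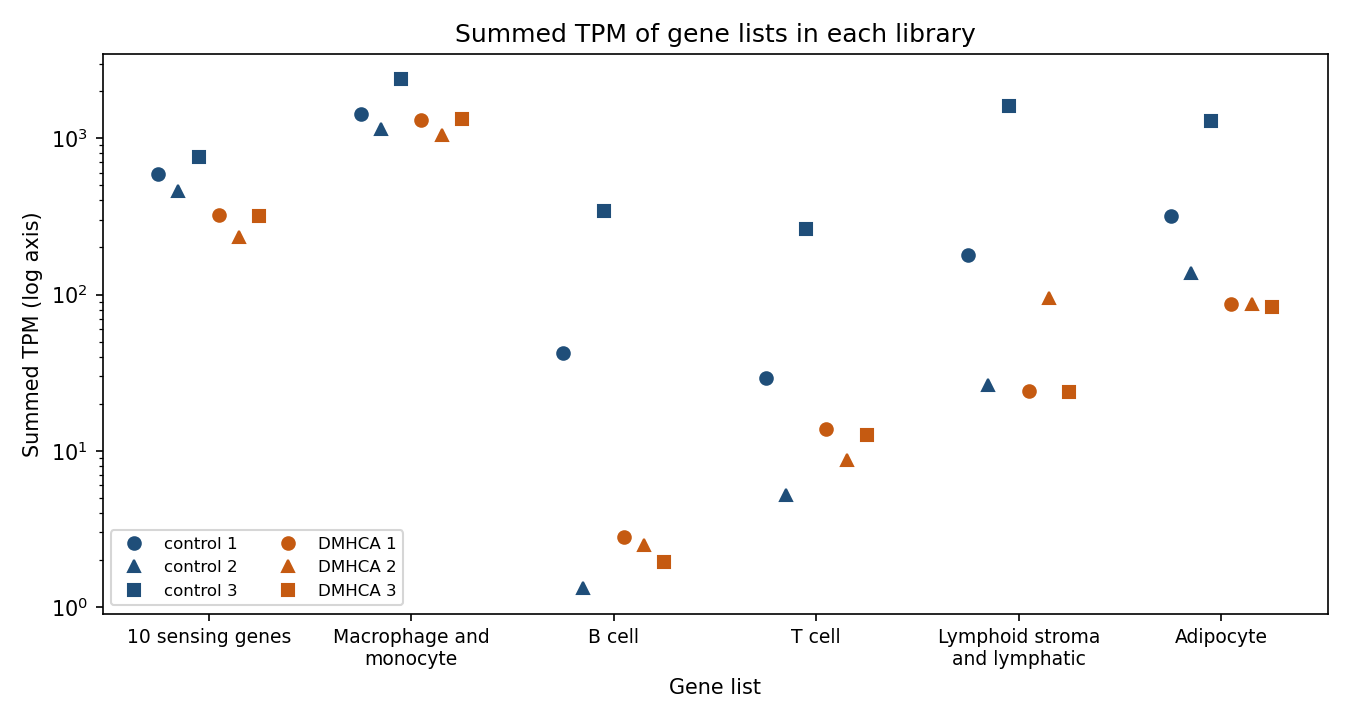
Summed TPM (log axis) of the 10 sensing genes and of 5 marker lists in each of the 6 libraries, controls in blue and DMHCA in orange. Control 3 is highest in every list shown, at 340.3 TPM for B cell markers against 42.0 and 1.32 in the other controls.

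Genes whose pattern over the 5 samples was most like that of Cd14, Clec7a and Cd209b were sought among 13855 genes by the root mean square difference of centred log2 counts. Those most like Cd14 were Plce1 (0.212), Rasd1 (0.253), Alcam (0.254) and Bcl2a1b (0.254). Rasd1, a Ras-related GTPase, had 427, 358 and 533 normalized counts in the controls against 97.4 and 92.1 with DMHCA, and every control exceeded both DMHCA samples. Those most like Clec7a were Nudt17 (0.195), Ptprd (0.218) and Ebf1 (0.241), and those most like Cd209b were Slc36a2 (0.157), Siglech (0.183) and Fam169b (0.192).

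Promoter sequences (RefSeq, GRCm38.p6) were matched for 6 of the 10 genes, Tlr2, Myd88, Clec7a, Cd209b, Card9 and Syk, and not for Cd14, Tlr4, Ly96 and Lbp. Of the 2 starts listed for Clec7a and for Syk, the start nearest to that of the gene annotation was used. RefSeq starts of Myd88, Syk and Tlr2 lie inside the annotated genes, so that the stretches of Myd88 and Syk fall wholly within the gene and that of Tlr2 mostly does. In the 250 bases upstream of each RefSeq start, 4 motifs were searched on both strands: GAGGAA, the core bound by the myeloid factor PU.1, the NF-κB consensus, the hexamer AGGTCA, and its direct repeat with 4 bases between, an LXR response element. GAGGAA is in 23.3% of the 32851 promoters, the NF-κB consensus in 3.9%, AGGTCA in 14% and the repeat in 0.0152%.

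Clec7a and Cd209b are shown because they were low together with DMHCA and their RefSeq and annotated starts are within 3 bases of each other. Clec7a (chr6:129472780-129473029, minus strand) has 1 GAGGAA, in capitals, and Cd209b (chr8:3926842-3927091, minus strand) has none of the 4. Tlr2 has 2 overlapping matches to the NF-κB consensus and 1 AGGTCA on the other strand. Myd88, Card9 and Syk have none of the 4. The matches describe the sequence only.
Clec7a: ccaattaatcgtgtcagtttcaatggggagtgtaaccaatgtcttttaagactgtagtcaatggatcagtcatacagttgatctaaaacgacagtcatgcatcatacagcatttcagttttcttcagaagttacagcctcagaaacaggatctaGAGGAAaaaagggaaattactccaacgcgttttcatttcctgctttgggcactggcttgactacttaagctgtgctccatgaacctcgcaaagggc
Cd209b: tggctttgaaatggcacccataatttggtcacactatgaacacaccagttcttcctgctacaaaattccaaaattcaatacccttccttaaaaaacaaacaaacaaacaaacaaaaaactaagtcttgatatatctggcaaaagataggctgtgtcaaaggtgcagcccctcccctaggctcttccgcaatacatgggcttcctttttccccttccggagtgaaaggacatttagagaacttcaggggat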

How the data were processed

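The authors checked reads with FastQC 0.11.9, trimmed them with cutadapt 2.9 and counted them on mm10 genes with RSEM 1.3.1 and Bowtie2 2.4.1. Per the file headers, the deposited values are expected counts, TPM and FPKM for 55385 genes per library. The authors' expected counts are not normalized, and 19.6% to 23.5% of them were not whole. The authors' FPKM were not used, and their TPM sum to nearly the same total in each library. Strand use was not stated.

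Expected counts were rounded and DMHCA 1 and 3 summed. The test was run in edgeR 4.0.16 under R 4.3.3 (TMM, filterByExpr with a minimum count of 10 and total of 15, quasi-likelihood F-test, Benjamini-Hochberg adjustment over 19427 genes), which was tested on simulated data. SE was taken as the log2 fold change over the root of the F statistic. Alternatives used DESeq2 1.42.0, limma 3.58.1, other scalings and filters, a replicate block, and each library left out. Python 3.11.15, pandas 2.3.3, numpy 2.4.6 and matplotlib 3.10.9 were used for tables and plots. Coordinates are GENCODE annotation on GRCm38, which held 99.6% of the genes.

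The 10 genes and all lists were chosen with earlier results of these data known. Named are the 10 genes, from each pathway list the 2 smallest p in each direction and the highest TPM, from each marker list the highest TPM and smallest p, and the genes most like Cd14, Clec7a and Cd209b. Highest TPM and most abundant refer to the mean over the 5 samples, and another gene can be higher in single libraries. Others are said to be chosen after their values were seen. The smallest library held 46358654 counts.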

Additional observations from a re-analysis of the deposited data

How the results depend on the processing

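Genes with an adjusted p under 0.05 numbered 0 in edgeR on the 5 samples (1478 unadjusted), 244 in DESeq2 on the 5 samples, 887 in DESeq2 on the 6 libraries and 16 in edgeR with no filter on low counts. DESeq2 gave log2 fold changes past the adjusted threshold of -1.85 for Cd14 and -3.33 for Cd209b on the 5 samples, and of -1.85 for Cd14, -3.23 for Cd209b and -1.95 for Clec7a on the 6 libraries. The cause was not tested. Leaving out each library, the count of the 10 genes lower at an unadjusted p under 0.05 ran from 1 without DMHCA 2 to 3, and the count with no overlap from 5 to 9 without control 1, where 18.2% of all genes were lower without overlap. That count was 4 with scaling by library size only and in limma on log2(TPM + 1), where Tlr4 overlapped, and 6 when only genes averaging 100 counts or more were kept. The share of all genes without overlap was not counted in these settings, so no change particular to the 10 can be read from them. A lone DMHCA sample, left without DMHCA 2, was assumed to vary like the controls. The log2 fold change of each of the 10 genes kept its sign in 16 alternatives, although limma on log2(TPM + 1) left Cd209b (p 0.0831) and Clec7a (p 0.107) over the unadjusted threshold. Lbp, at p 0.0581 in edgeR on the 5 samples, was under it in limma (0.0347), with library size only (0.0409), with no filter (0.0380), with only genes averaging 100 counts or more (0.0486) and in DESeq2 (0.0416) and edgeR (0.0411) on the 6 libraries. Lbp stayed over it in DESeq2 on the 5 samples (0.0586), with DESeq2 size factors within edgeR (0.0695) and with robust dispersions (0.0554). With a control left out, its p in edgeR ran from 0.0510 without control 3 to 0.135 without control 2. It was 0.0529 without DMHCA 1 and 0.0604 without DMHCA 3. The log2 fold change came nearest 0 for Syk, at -0.04 without control 3.

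Same-numbered libraries had correlations of deviations across genes of -0.0585, 0.342 and 0.359, and differently numbered ones -0.390 to 0.346. Control 3 had 0.346 with DMHCA 1 and 0.359 with DMHCA 3, which were counted as 1 sample. These values therefore cannot decide whether the numbers pair libraries. With a replicate block on the 6 libraries edgeR called 0 of 18674 genes, with 3207 in either direction at an unadjusted p under 0.05. Without the block there were 0 and 2912 of the same 18674. In each fit 4 of the 10 genes passed the unadjusted threshold, all lower. Cd14, Cd209b and Clec7a passed in both, Lbp only without the block (p 0.0411, and 0.0828 with it) and Tlr4 only with it (p 0.0199, and 0.0682 without).

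With 2 DMHCA samples, a p that misses the threshold does not show that groups are alike. Depth was similar across libraries, and genes such as Cd207 rest on few counts. Control 3 sets the size of several differences, including Clec7a, Cd209b and Syk. The tables do not say which cells gave the RNA, and read division between related lectins and antisense overlap could not be revisited from the deposited values.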
